A study of Mus musculus with 8 samples.

Results

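The glucocorticoid receptor gene *Nr3c1*, 7 genes that the activated receptor induces in many tissues (*Tsc22d3*, *Fkbp5*, *Sgk1*, *Zbtb16*, *Klf9*, *Dusp1* and *Errfi1*) and the metallothionein genes *Mt1* and *Mt2* were followed from liver to liver. The rule takes them by name and uses no measured value, though genes and lists were chosen with earlier results of these data known. Each of the 10 symbols matched 1 of 45706 identifiers with counts, and all 10 passed the filter on low counts that 15491 genes passed. The series holds bulk RNA-seq of liver from 8 male mice of the strain labelled C56B6/J, named C57BL/6J in the paper. Of these, 4 had the genotype label Srsf10KD (*Srsf10-kd*) and 4 the label WT (*Ctrl*). At 6 weeks of age every mouse received AAV2/8 by the tail vein, carrying behind the CBA promoter either a mirE/shRNA against *Srsf10*, which encodes an RNA-binding SR protein, or a control mirE/shRNA. All mice were placed 4 weeks later on a high fat diet with 60% of calories from fat, and livers were taken after 12 weeks of it. CBA, the chicken beta-actin promoter, is active in many cell types, so the shRNA was not limited to hepatocytes by its promoter. The hour at which livers were taken is not given in the sources used here.

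Glucocorticoids, corticosterone in the mouse, are adrenal hormones that rise with stress and with the daily approach of activity. They bind the receptor in the cytoplasm, where the HSP90 chaperone complex holds it, and the receptor then moves to the nucleus and binds DNA as a dimer. In liver it drives genes of fasting metabolism and restrains inflammation. Metallothioneins are small cysteine-rich proteins that bind zinc and copper; their genes respond to metals through the factor MTF1, and also to glucocorticoids and to inflammatory signals.

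Gene counts came to 50456404 to 59697241 reads a liver. *Srsf10* itself was measured at 34.3, 34.0, 41.0 and 36.5 CPM (counts scaled to a common library size after TMM normalization) in *Srsf10-kd* 1 to 4 and at 31.6, 33.7, 35.3 and 30.9 CPM in *Ctrl* 1 to 4. Its mean was not lower in the livers labelled as knock-down, with a log2 fold change of 0.15 (standard error, SE, 0.10, adjusted p = 0.378 in edgeR's quasi-likelihood test) and 0.088 without *Srsf10-kd* 3, so groups are named here by their labels. The paper reports lower SRSF10 protein by western blot and lower *Srsf10* RNA by qPCR in knock-down livers. Along the first principal component, which held 44.8% of the variance, *Srsf10-kd* 3 lay at 67.4 and the other livers between -41.8 and 11.5. Short transcripts had relatively more counts in *Srsf10-kd* 3, where log2 level changed by -0.18 for each doubling of transcript length, while the slope ran from -0.064 to -0.024 in the other *Srsf10-kd* livers and from -0.03 to 0.13 in *Ctrl* livers. Fits without *Srsf10-kd* 3 and with the length trend removed were therefore also made. The fit without *Ctrl* 3 is given because it had the most edgeR calls with 1 liver left out, 544 of all genes. Its p-values thus come from an exclusion chosen by its outcome. Values from these fits stand beside many of the results.

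The quasi-likelihood test of edgeR put 0 of the 10 genes, and 11 of all 15491 (0.0710%), past an adjusted p of 0.05. At an unadjusted p under 0.05 that test gave 5 of the 10, with *Dusp1*, *Tsc22d3* and *Sgk1* higher and *Zbtb16* and *Nr3c1* lower in *Srsf10-kd* livers, where 21.8% of all genes tested fell under it. DESeq2 called *Dusp1* and *Zbtb16*, 2 of the 10, and 5.75% of all genes. Limma-voom with sample quality weights called *Dusp1*, *Zbtb16*, *Nr3c1* and *Fkbp5*, 4 of the 10, and 11.7% of all genes. The groups did not overlap for *Dusp1* alone, 1 of the 10, where 14.3% of all genes tested had groups that did not overlap. Without *Ctrl* 3, edgeR called *Dusp1* and *Zbtb16*, 2 of the 10, and 3.47% of all genes. Without *Srsf10-kd* 3 the groups did not overlap for 4 of the 10 (*Sgk1*, *Dusp1*, *Nr3c1* and *Fkbp5*) and for 16.2% of all genes. The median log2 fold change over the 10 was 0.21, with 6 above 0 and 4 below, and over all genes tested it was 0.013. Fitted values of both signs thus occurred among genes that the same receptor induces. P-values measure the spread among 4 livers a group, which the labels give as separate samples. In bulk liver, fewer cells of a type and less RNA per cell cannot be told apart.

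**Figure D1:**
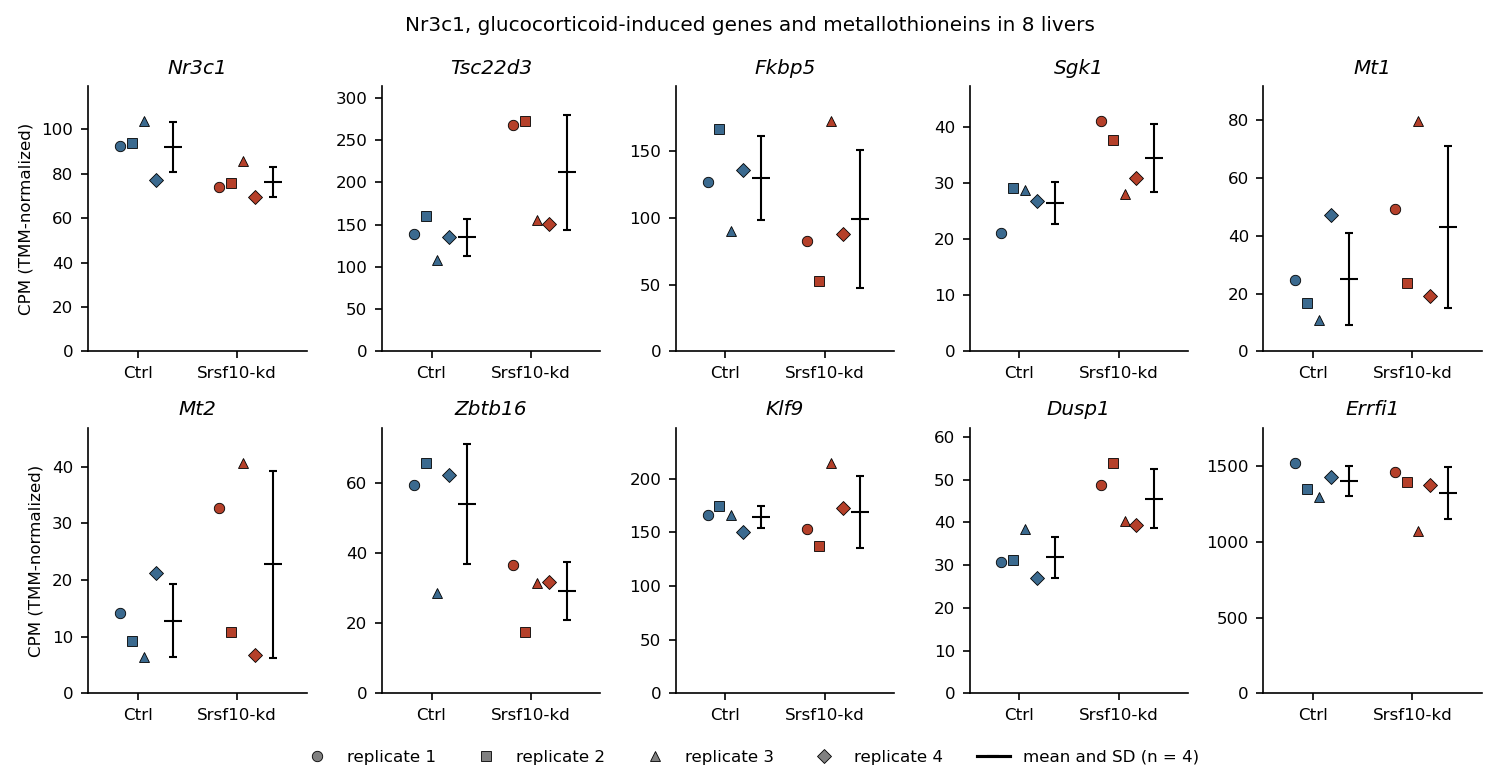
Level of each of the 10 genes in CPM after TMM scaling (y axis, from 0) in the 4 *Ctrl* livers (blue) and the 4 *Srsf10-kd* livers (red), 1 symbol per replicate number, with the mean and SD of each group in black. Only for *Dusp1* does every *Srsf10-kd* liver, from 39.4 CPM, lie above every *Ctrl* liver, up to 38.5 CPM.

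The receptor gene *Nr3c1* (ENSMUSG00000024431) lies on the minus strand of chromosome 18 of GRCm38, from 39410545 to 39519421. CPM values were 74.3, 76.1, 85.9 and 69.7 in *Srsf10-kd* 1 to 4, and 92.7, 93.8, 104 and 77.2 in *Ctrl* 1 to 4. The *Srsf10-kd* livers were the lower ones except that *Srsf10-kd* 3 stood above *Ctrl* 4. The *Srsf10-kd* mean was 76.5 ± 6.82 CPM and the *Ctrl* mean 92.0 ± 11.2 CPM (SD, n = 4 each). Between *Srsf10-kd* and *Ctrl* the log2 fold change was -0.27 (SE 0.12), and adjusted p was 0.228 in edgeR but 0.0385 in limma-voom. Exact permutation, two-sided over the 70 ways to split the livers, gave p = 0.0571, where 0.0286 is the smallest p possible. With the trend on transcript length removed the log2 fold change was -0.046 (adjusted p = 0.913 in edgeR). *Nr3c1* thus varied little, its highest liver standing 1.5 times above its lowest. Only 25.9% of genes tested varied less by that ratio, a share over genes of all levels. Counting noise raises the ratio of genes with few reads, and *Nr3c1* had 3912 to 5734 reads a liver.

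*Fkbp5* encodes FKBP51, an HSP90 co-chaperone that lowers the receptor's affinity for hormone and so closes a feedback loop. The gene (ENSMUSG00000024222) spans chromosome 17 from 28399094 to 28517527 on the minus strand. It reached 82.8, 52.8, 173 and 87.7 CPM in *Srsf10-kd* 1 to 4, and 127, 167, 90.0 and 136 CPM in *Ctrl* 1 to 4. *Srsf10-kd* 3 had the highest level of all 8 livers while the other *Srsf10-kd* livers lay below every *Ctrl* liver. On the log2 scale the groups differed by -0.39 (SE 0.33, adjusted p = 0.475 in edgeR's quasi-likelihood test). Without *Srsf10-kd* 3 it was -0.80 and the groups did not overlap, but the adjusted p in edgeR was still 0.155, and without *Srsf10-kd* 2, the lowest liver, it was -0.18. Limma-voom gave -0.82 and an adjusted p of 0.0352. Its sample quality weights are estimated from these counts, by how far each liver departs from its group, and not from RNA quality.

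*Tsc22d3* encodes GILZ, a leucine zipper protein that mediates anti-inflammatory actions of the hormone. It is an X-linked gene (ENSMUSG00000031431, 140539528 to 140600659, minus strand). Its level was 268, 273, 155 and 151 CPM in *Srsf10-kd* 1 to 4, and 139, 160, 108 and 135 CPM in *Ctrl* 1 to 4. *Srsf10-kd* 1 and 2 stood apart at the top, while *Srsf10-kd* 3 and 4 lay within the *Ctrl* range. The *Srsf10-kd* mean was 212 ± 68.0 CPM and the *Ctrl* mean 135 ± 21.6 CPM (SD, n = 4 each). The fitted difference between groups, as a log2 fold change, was 0.64 (SE 0.22), with an adjusted p of 0.164 in edgeR, 0.0818 in DESeq2 and 0.103 in limma-voom. Leaving out any 1 liver kept it between 0.50 and 0.78. *Srsf10-kd* 2 was also the liver with the most RNA of pancreatic acinar markers, 254 CPM over 5 genes. The other *Srsf10-kd* livers had 12.4 to 18.9 CPM of these and the *Ctrl* livers 6.35 to 10.2 CPM. The part of this in the values of *Srsf10-kd* 2 was not tested. T and NK cell markers, 7 genes summed, took 1.75 to 3.38 CPM in *Srsf10-kd* and 2.57 to 3.98 CPM in *Ctrl* livers.

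*Dusp1*, the other anti-inflammatory effector here, encodes a phosphatase that switches off p38 and JNK kinases. It lies on chromosome 17 (ENSMUSG00000024190, 26505590 to 26562128, minus strand). Its level was 48.8, 54.0, 40.3 and 39.4 CPM in *Srsf10-kd* 1 to 4, and 30.7, 31.3, 38.5 and 27.0 CPM in *Ctrl* 1 to 4. Every *Srsf10-kd* liver was above every *Ctrl* liver, with *Ctrl* 3 only just below *Srsf10-kd* 4. The *Srsf10-kd* mean was 45.6 ± 6.98 CPM and the *Ctrl* mean 31.9 ± 4.80 CPM (SD, n = 4 each). Its log2 fold change came to 0.52 (SE 0.14), with an adjusted p of 0.129 in edgeR, 0.0340 in DESeq2 and 0.0167 in limma-voom. Its exact permutation p was 0.0286, the smallest that 4 livers against 4 can give. Without *Ctrl* 3 the log2 fold change was 0.62 and the adjusted p in edgeR 0.0480. With library size alone as the scale, or with the trend on transcript length removed, the groups overlapped. Cholangiocyte markers, 5 genes summed, also separated the groups, at 46.5 to 68.6 CPM in *Srsf10-kd* and 31.4 to 39.1 CPM in *Ctrl* livers. None of them was at 0, and DESeq2 called 1 of the 5 (5.75% of all genes). Summed pancreatic acinar markers separated the groups as well, at 12.4 to 254 CPM and 6.35 to 10.2 CPM. DESeq2 also called 1 of 6 endothelial and 1 of 5 red blood cell markers. The part of these cell types in the *Dusp1* result was not tested. *Dusp1* is also an immediate early gene, induced by growth factors and tissue stress without the hormone.

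*Sgk1* encodes a kinase that raises sodium transport and cell survival and is switched on by glucocorticoids and mineralocorticoids. It lies on chromosome 10 (ENSMUSG00000019970, 21882184 to 21999903, plus strand). Its level was 41.1, 37.7, 28 and 30.8 CPM in *Srsf10-kd* 1 to 4, and 21, 29.1, 28.8 and 26.7 CPM in *Ctrl* 1 to 4. As for *Tsc22d3*, *Srsf10-kd* 1 and 2 were the highest livers, and *Srsf10-kd* 3 lay within the *Ctrl* range. This made a log2 fold change of 0.38 (SE 0.15, adjusted p = 0.198 in edgeR and 0.159 in DESeq2). Without *Srsf10-kd* 3 the groups did not overlap and it was 0.47 (adjusted p = 0.161 in edgeR).

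The sequence that the receptor dimer prefers is an inverted repeat of the half-site AGAACA around 3 free bases, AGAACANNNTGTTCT. It was searched on both strands in RefSeq windows of GRCm38.p6, each running from 250 bases before to 50 bases after a gene start. Only 3 of 32851 windows held the full repeat (0.00913%), and 1 of them belongs to *Sgk1*. It is shown, with the repeat in capitals and 30 bases on each side, because no other of the 16 windows of these genes held it. The stretch is chr10:21993671-21993745, plus strand, in no annotated *Sgk1* exon, and the repeat ends 174 bases before the RefSeq start at 21993890, 1 of 6 starts with a window.

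*Sgk1*: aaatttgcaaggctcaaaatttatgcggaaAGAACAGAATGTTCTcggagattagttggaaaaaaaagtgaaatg

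The half-site alone occurs in 19% of all windows and in 4 of the 16, 3 of *Sgk1* and 1 of *Tsc22d3*, and each full repeat counts as half-sites too. Windows were at hand for 8 of the 10 genes, all but *Nr3c1* and *Zbtb16*. A match is a description of letters and not of receptor binding, which was not measured.

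*Errfi1* encodes MIG6, an inhibitor of EGF receptor signalling that limits growth responses in hepatocytes. It was the most abundant of the 10, also per kb of exon (median 386 CPM per kb), with 1458, 1394, 1071 and 1373 CPM in *Srsf10-kd* 1 to 4 and 1523, 1351, 1294 and 1429 CPM in *Ctrl* 1 to 4. The *Srsf10-kd* livers lay within the *Ctrl* range, except for the low value of *Srsf10-kd* 3. In log2 terms the fold change was -0.079 (SE 0.13, adjusted p = 0.727 in edgeR), and 0.011 without that liver. The gene (ENSMUSG00000028967) runs on chromosome 4 from 150853919 to 150868892 on the plus strand.

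Among the transcription factors, *Zbtb16* had the lowest fitted value of the 10. It encodes PLZF, a zinc finger repressor that glucocorticoids induce in many tissues and that innate-like T cells also need. The gene (ENSMUSG00000066687) lies on chromosome 9 from 48654297 to 48836222 on the minus strand. It reached 36.6, 17.4, 31.5 and 31.7 CPM in *Srsf10-kd* 1 to 4, and 59.5, 65.8, 28.7 and 62.4 CPM in *Ctrl* 1 to 4. *Ctrl* 3 fell among the *Srsf10-kd* livers, and the other *Ctrl* livers lay well above all of them. The *Srsf10-kd* mean was 29.3 ± 8.28 CPM and the *Ctrl* mean 54.1 ± 17.1 CPM (SD, n = 4 each). As a log2 fold change this was -0.88 (SE 0.28), with an adjusted p of 0.151 in edgeR, 0.0481 in DESeq2 and 0.0242 in limma-voom. Without *Ctrl* 3 it was -1.10 (adjusted p = 0.0396 in edgeR), without *Srsf10-kd* 2, the lowest liver, -0.70, and with the trend on transcript length removed -0.70 (adjusted p = 0.264 in edgeR). It is induced by the hormone as *Tsc22d3* is, and its fitted value has the opposite sign.

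*Klf9*, a Krüppel-like factor that the receptor induces and that is also under clock control, had the fitted value nearest 0 of the 10. It lies on chromosome 19 (ENSMUSG00000033863, 23141226 to 23168134, plus strand). Its level was 153, 137, 215 and 173 CPM in *Srsf10-kd* 1 to 4, and 166, 175, 166 and 150 CPM in *Ctrl* 1 to 4. *Srsf10-kd* 3 was the highest liver and *Srsf10-kd* 2 the lowest, so the *Ctrl* range sat inside the other. Fitted as a log2 fold change, this gave 0.045 (SE 0.14, adjusted p = 0.866 in edgeR), -0.091 without *Srsf10-kd* 3 and 0.17 with the length trend removed.

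**Figure D2:**
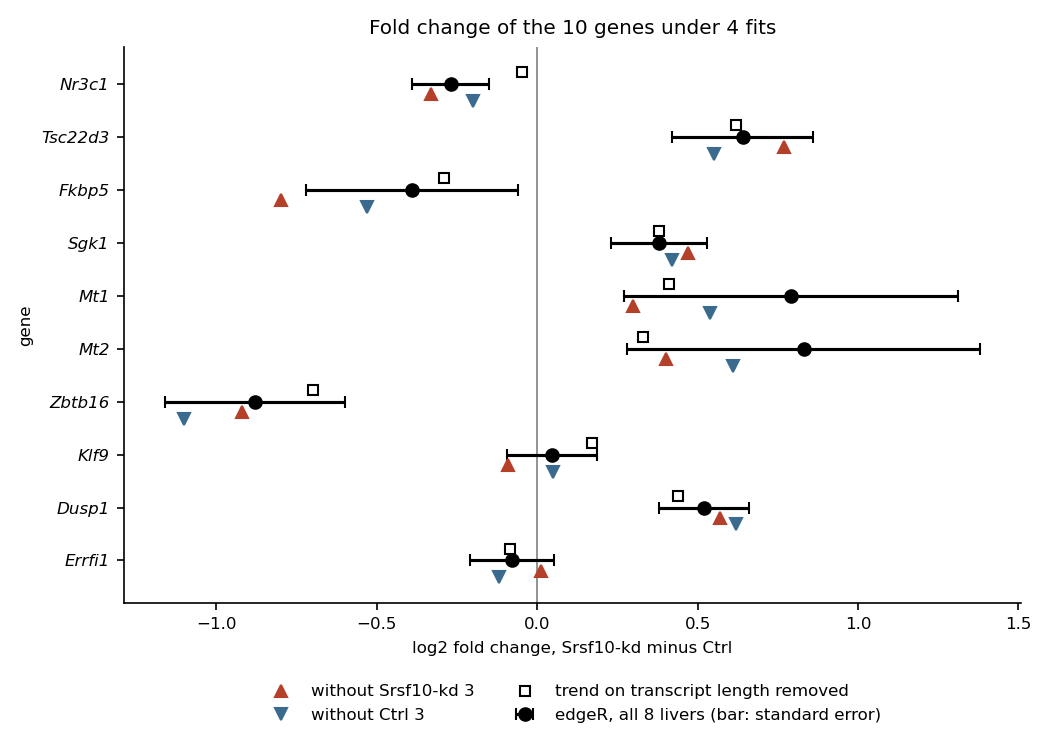
Log2 fold change of the 10 genes, *Srsf10-kd* minus *Ctrl* (x axis), from edgeR with all 8 livers (black circles, bars 1 standard error), without *Srsf10-kd* 3 (red), without *Ctrl* 3 (blue) and with the trend on transcript length removed (open squares). *Tsc22d3*, *Sgk1* and *Dusp1* lie right of 0 and *Zbtb16* and *Fkbp5* left of it in all of them, *Mt1* moves from 0.79 to 0.30 and *Fkbp5* from -0.39 to -0.80 without *Srsf10-kd* 3, and *Nr3c1* moves from -0.27 to -0.046 with the length trend removed.

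The metallothionein genes lie side by side on the plus strand of chromosome 8, *Mt2* (ENSMUSG00000031762) from 94172664 to 94173568 and *Mt1* (ENSMUSG00000031765) from 94179082 to 94180327, with 5513 bases between them. The bases before each start are shown because both genes varied together, and because the core of the metal response element, TGCACNC or TGCGCNC on either strand, occurs there. Capitals mark the core. The stretches are chr8:94178839-94179081 for *Mt1* and chr8:94172368-94172617 for *Mt2*, plus strand, RefSeq windows of GRCm38.p6 up to the first annotated start. Other annotated starts of both genes lie further downstream, and the bases before those were not searched beyond the window.

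*Mt1*: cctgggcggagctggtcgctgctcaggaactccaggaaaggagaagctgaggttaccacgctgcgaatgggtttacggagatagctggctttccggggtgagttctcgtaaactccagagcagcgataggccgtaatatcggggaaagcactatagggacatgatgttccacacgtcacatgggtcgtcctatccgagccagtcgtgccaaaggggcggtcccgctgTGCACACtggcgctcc

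*Mt2*: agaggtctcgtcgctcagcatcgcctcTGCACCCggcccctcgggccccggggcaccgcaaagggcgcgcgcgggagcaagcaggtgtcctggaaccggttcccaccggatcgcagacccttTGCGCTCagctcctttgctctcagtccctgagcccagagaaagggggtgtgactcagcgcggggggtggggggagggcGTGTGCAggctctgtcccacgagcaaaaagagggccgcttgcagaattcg

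The 300-base window of *Mt1* held 3 cores, of which 1 lies before the start and is in capitals, and that of *Mt2* held 4, of which 3 do. At least 1 core was found in 25.7% of all 32851 windows and 3 or more in 1.97%. Among the other genes *Dusp1* had 1 core in its window and *Sgk1* 1 in 1 of its 6 windows. The half-site AGAACA was found in neither metallothionein window, which speaks of these letters in this window only.

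*Mt1* was measured at 49.3, 23.6, 79.8 and 19.3 CPM in *Srsf10-kd* 1 to 4, and at 24.8, 16.8, 10.8 and 47.2 CPM in *Ctrl* 1 to 4. *Mt2* was measured at 32.7, 10.9, 40.7 and 6.86 CPM in the same *Srsf10-kd* livers, and at 14.1, 9.26, 6.5 and 21.2 CPM in the *Ctrl* livers. For both genes *Srsf10-kd* 3, *Srsf10-kd* 1 and *Ctrl* 4 were the highest livers, in that order, and *Ctrl* 3 was the lowest, so the groups overlapped throughout. The means were 43.0 ± 27.9 CPM and 24.9 ± 15.9 CPM for *Mt1*, and 22.8 ± 16.5 CPM and 12.8 ± 6.45 CPM for *Mt2* (SD, n = 4 each). The log2 fold changes were 0.79 (SE 0.52) and 0.83 (SE 0.55), with adjusted p-values of 0.369 and 0.368 in edgeR's quasi-likelihood test. They moved with single livers, being 0.30 and 0.40 without *Srsf10-kd* 3 and 1.29 and 1.19 without *Ctrl* 4. With the trend on transcript length removed they were 0.41 and 0.33. The longest annotated transcripts of *Mt1* and *Mt2* are 1085 and 511 bases. Of the exonic bases of *Mt2*, 432 overlap *Gm45774* on the other strand, for which the counts hold no identifier. The paper names a directional library kit, but the strand column behind the counts is not named. Reads from that strand could thus be counted for *Mt2*, and its level is uncertain.

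Across the 8 livers the log2 CPM of *Mt1* and *Mt2* went together. Pearson's r was 0.96 and Spearman's rho 0.98, with exact permutation p-values of 0.000198 and 0.000397, adjusted to 0.000992 and 0.00198 over 5 pairs of genes. Without *Srsf10-kd* 3 and *Ctrl* 3, the livers farthest from the median of *Mt1*, r was 0.93. With each group's mean removed it was 0.96 (exact permutation p = 0.00347, adjusted p = 0.0174). The ratio of *Mt1* to *Mt2* CPM within a liver stayed between 1.51 and 2.81 while their sum ran from 17.3 CPM in *Ctrl* 3 to 120 CPM in *Srsf10-kd* 3. In the other 4 pairs no adjusted p was under 0.05. *Fkbp5* and *Tsc22d3* gave r = -0.55 and rho = -0.36 (exact permutation p = 0.163 and 0.389, adjusted 0.408 and 0.793), r = -0.25 without *Srsf10-kd* 2 and 3, and -0.37 with group means removed (exact permutation p = 0.623, adjusted 0.936). *Fkbp5* and *Mt1* gave r = 0.32 and rho = 0.19 (exact permutation p = 0.434 and 0.665, adjusted 0.723 and 0.793), r = 0.00423 without the same livers, and 0.64 with group means removed (exact permutation p = 0.127, adjusted 0.317). *Dusp1* and *Errfi1* gave r = -0.16 and rho = -0.19 (exact permutation p = 0.727 and 0.665, adjusted 0.909 and 0.793), and r = -0.19 without *Srsf10-kd* 2 and *Ctrl* 4. *Fkbp5* and *Per1*, a clock gene that the hormone also induces, gave r = 0.0319 and rho = 0.12 (exact permutation p = 0.935 and 0.793, adjusted 0.935 and 0.793). Without *Srsf10-kd* 2 and 3 the last r was 0.77, so the value over all livers rested on those livers.

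**Figure D3:**
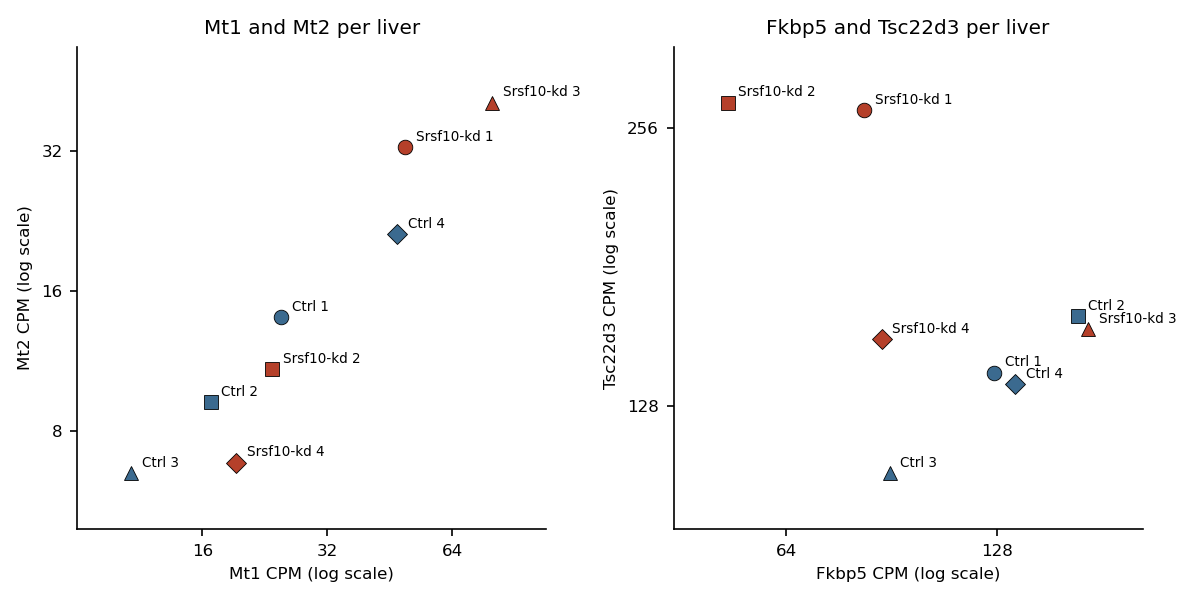
CPM of *Mt2* against *Mt1* (left) and of *Tsc22d3* against *Fkbp5* (right), both axes on a log scale, 1 point per liver, *Ctrl* in blue and *Srsf10-kd* in red. The *Mt1* and *Mt2* points follow 1 line (r = 0.96) with both groups mixed along it, while *Fkbp5* and *Tsc22d3* do not (r = -0.55).

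No liver had all receptor targets high or all low. Counted against each gene's own mean log2 CPM over the 8 livers, 6, 4, 5 and 4 of the 9 genes other than *Nr3c1* were above it in *Srsf10-kd* 1 to 4, and 4, 3, 2 and 5 in *Ctrl* 1 to 4. *Srsf10-kd* 1 had the most, with a median deviation of 0.37 on the log2 scale, and *Ctrl* 3 the fewest, with -0.25. *Srsf10-kd* 2 combined the highest *Tsc22d3* (0.73 above its mean log2 level) and *Dusp1* (0.51 above) with the lowest *Fkbp5* (-1.02) and *Zbtb16* (-1.13). *Srsf10-kd* 3 had the highest *Fkbp5* (0.70), *Klf9* (0.38), *Mt1* (1.51) and *Mt2* (1.5) and the lowest *Errfi1* (-0.34).

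**Figure D4:**
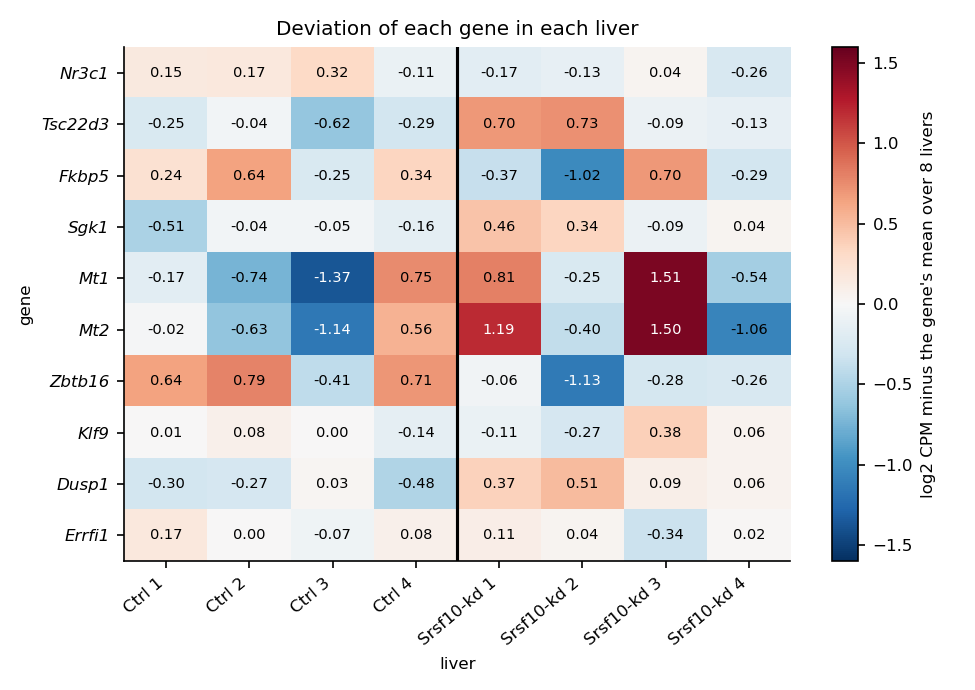
Log2 CPM of each gene (rows) in each liver (columns) minus the gene's mean over the 8 livers, red above and blue below it, with *Ctrl* livers left of the line. *Mt1* and *Mt2* share their colours from liver to liver, and in *Srsf10-kd* 2 *Tsc22d3* (0.73) and *Fkbp5* (-1.02) lie at opposite ends.

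The genes differed widely in how much they varied. The highest liver was 7.36 times the lowest for *Mt1*, 6.25 for *Mt2*, 3.78 for *Zbtb16* and 3.28 for *Fkbp5*, and 97.4%, 96.6%, 91.1% and 88.0% of all genes tested had a smaller ratio. It was 2.53 for *Tsc22d3*, 2 for *Dusp1*, 1.96 for *Sgk1*, 1.57 for *Klf9* and 1.42 for *Errfi1*. Divided by exon length, median levels over the 8 livers were 386 CPM per kb for *Errfi1*, 35.2 for *Tsc22d3*, 34.5 for *Klf9*, 21.3 for *Mt2*, 19.4 for *Mt1*, 11.8 for *Dusp1*, 11.4 for *Fkbp5*, 10.6 for *Nr3c1*, 6.47 for *Zbtb16* and 5.90 for *Sgk1*. Exon length is the union over all annotated transcripts. For *Mt1* that is 1246 bases, its whole annotated span, and for *Mt2* 588 bases. As the union can exceed the length of the spliced RNA, the order of *Mt1* and *Mt2* per kb is uncertain. *Errfi1*, at 299 to 425 CPM per kb, overlapped no other gene. Every other gene overlapped its neighbour in this order over the livers, as *Zbtb16* (3.30 to 12.5 CPM per kb) did *Nr3c1* (9.07 to 13.6 CPM per kb).

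The genes most like *Nr3c1*, *Fkbp5* and *Mt1* were taken as those with the highest Pearson r of log2 CPM over the 8 livers after removing group means, among 10549 protein-coding genes. For *Nr3c1* they were *Stx7* (0.989), *Trim12c* (0.988) and *Rab29* (0.985). For *Fkbp5* they were *Gtf2ird2* (0.972), *Rrp8* (0.965) and *Nufip1* (0.956). For *Mt1* they were *Itsn2* (0.966), *Mt2* (0.959) and *Nrros* (0.957), so that its neighbour ranked at position 2. These are the top of a long list over few livers that share library, depth and the length trend, and are a description.

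Other genes of the pathway were read from lists, in which edgeR's quasi-likelihood test called 0 at an adjusted p of 0.05. Over all genes tested, 21.8% had an unadjusted p under 0.05 in edgeR, DESeq2 called 5.75% and limma-voom 11.7%, and each list's counts are to be read against these shares. Of 29 other glucocorticoid-induced genes tested, 10 had an unadjusted p under 0.05 in edgeR (8 higher, 2 lower), DESeq2 called 5, all higher, limma-voom called 6 (5 higher, 1 lower), and the list's median was 0.04 on the log2 scale. The 5 that DESeq2 called are *Nfkbia*, which encodes an inhibitor of NF-kB (0.52), the C/EBP factors *Cebpb* (0.71) and *Cebpd* (0.46), the growth arrest gene *Gadd45g* (0.85), and *Anxa1* (0.57), whose product restrains inflammation and which was named after its value was seen. *Nfkbia* was tight within groups, at 72.9 to 77.6 CPM in *Srsf10-kd* and 48.3 to 57.2 CPM in *Ctrl* livers, with an adjusted p of 0.0826 in edgeR, 0.0283 in edgeR without *Ctrl* 3, and 4.03e-06 in DESeq2. With the length trend removed its log2 fold change was 0.35 (adjusted p = 0.186 in edgeR). The paper also reports higher *Nfkbia* in its RNA-seq of knock-down livers, and names it as a gene that PPARalpha represses. The gene that limma-voom called lower is *Mertk* (-0.36), which encodes a receptor for the uptake of dying cells and was also named after its value was seen. The metabolic targets *Tat* (-0.15), which encodes tyrosine aminotransferase, and *Pck1* (-0.30), the gluconeogenic PEPCK, also named after their values were seen, had adjusted p-values of 0.790 and 0.440 in edgeR. As background, several genes of this list, called or not, respond to inflammatory or growth signals as well as to the hormone. The part of such signals in these values was not tested.

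Of 23 tested genes for receptor chaperones, cofactors and steroid handling, 5 had an unadjusted p under 0.05 in edgeR (2 higher, 3 lower), a share close to the 21.8% of all genes. DESeq2 called 1 higher and 1 lower (5.75% of all genes), limma-voom 1 higher and 3 lower (11.7% of all genes), and the median was 0.022. DESeq2's calls were *Ptges3*, encoding the HSP90 co-chaperone p23 (0.43, adjusted p = 0.0317 in DESeq2), and *H6pd* (-0.76, adjusted p = 0.0137 in DESeq2), whose enzyme makes the NADPH with which 11beta-HSD1 regenerates active hormone. *H6pd* was measured at 320, 259, 163 and 271 CPM in *Srsf10-kd* 1 to 4 and at 463, 407, 374 and 465 CPM in *Ctrl* 1 to 4, and every *Srsf10-kd* liver was below every *Ctrl* liver. *Hsd11b1*, which encodes 11beta-HSD1 itself, was at 547, 671, 810 and 635 CPM against 611, 609, 734 and 421 CPM, with a log2 fold change of 0.16 (adjusted p = 0.590 in edgeR), and 0.029 without *Ctrl* 4. *Serpina6*, encoding the corticosteroid-binding globulin of plasma, had 0.21 (adjusted p = 0.676 in edgeR), but -0.11 without *Srsf10-kd* 2. The coactivator genes *Med1* (-0.33) and *Ncoa2* (-0.45) had adjusted p-values of 0.166 and 0.175 in edgeR and of 0.0485 and 0.0477 in edgeR without *Ctrl* 3. With the length trend removed their log2 fold changes were -0.04 and -0.16.

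Of 16 tested genes of metal response and zinc handling, 2 had an unadjusted p under 0.05 in edgeR (21.8% of all genes), both lower, DESeq2 called 0 (5.75% of all genes), limma-voom called 2, both lower (11.7% of all genes), and the median was -0.15. These were the zinc transporters *Slc30a7* (-0.33, adjusted p = 0.166 in edgeR) and *Slc39a14* (-0.35, adjusted p = 0.190 in edgeR). With the length trend removed their log2 fold changes were -0.039 and -0.18 (adjusted p = 0.873 and 0.452 in edgeR), and without *Ctrl* 3 that of *Slc39a14* was -0.47 (adjusted p = 0.0421 in edgeR). *Mtf1*, the metal sensor of the metallothionein genes, was at 17.9, 19.7, 20.3 and 17.4 CPM in *Srsf10-kd* and 20.8, 19.9, 15.8 and 20.4 CPM in *Ctrl* livers. That is a log2 fold change of -0.029 (adjusted p = 0.898 in edgeR), and 0.25 with the length trend removed. *Slc30a1*, a zinc exporter that MTF1 also induces, had -0.19 (adjusted p = 0.390 in edgeR), and -0.017 with the length trend removed. The listed *Mt3* and *Mt4*, metallothionein genes of brain and of squamous epithelium, did not pass the filter on low counts, with at most 0.0351 and 0.239 CPM. *Txnrd1* (-0.33) and *Nqo1* (0.37), which respond to oxidants, had adjusted p-values of 0.278 and 0.316 in edgeR.

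Because hormone levels follow the clock, 18 genes of the circadian clock and its outputs were read beside them. In edgeR 2 had an unadjusted p under 0.05 (21.8% of all genes), both lower, DESeq2 called 1, lower (5.75% of all genes), limma-voom 2, both lower (11.7% of all genes), and the median was -0.17. *Clock*, whose protein pairs with BMAL1, was at 49.3, 43.5, 39.3 and 44.5 CPM in *Srsf10-kd* and 57.2, 63.7, 59.8 and 58.9 CPM in *Ctrl* livers, without overlap (-0.44, adjusted p = 0.114 in edgeR and 0.00439 in DESeq2), and -0.14 with the length trend removed. *Cry2* (-0.46), *Bhlhe41* (-0.66) and *Hlf* (-0.22) had adjusted p-values of 0.186, 0.280 and 0.335 in edgeR. With the length trend removed *Bhlhe41* was -0.42 and *Hlf* -0.025. *Dbp*, an output with a steep daily rhythm in liver, was at 50.6, 98.9, 167 and 82.5 CPM in *Srsf10-kd* and 85.6, 84.4, 93.6 and 104 CPM in *Ctrl* livers. The *Ctrl* livers were close together and the *Srsf10-kd* livers lay on both sides of them. *Nr1d1*, encoding REV-ERBalpha, was at 55.5, 65.2, 34.5 and 82.5 CPM and at 80.3, 75.7, 45.0 and 111 CPM. *Arntl*, encoding BMAL1, was at 5.42, 3.88, 2.59 and 3.60 CPM and at 4.57, 4.42, 3.54 and 4.56 CPM. *Srsf10-kd* 3 thus had the highest *Dbp* and the lowest *Nr1d1* and *Arntl* of the 8 livers, and it also had the highest *Fkbp5* and *Klf9*. The part of sampling time in these values was not tested.

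Of 20 acute phase genes, which inflammatory cytokines induce in hepatocytes together with the hormone, 6 had an unadjusted p under 0.05 in edgeR (21.8% of all genes), all higher, DESeq2 called 2, both higher (5.75% of all genes), limma-voom called 0 (11.7% of all genes), and the median was 0.24. *Saa1*, a serum amyloid A gene, was at 747, 102, 130 and 17.6 CPM in *Srsf10-kd* 1 to 4 and at 42.2, 18, 22.0 and 29.4 CPM in *Ctrl* 1 to 4. *Srsf10-kd* 1 stood far above all, and *Srsf10-kd* 4 was the lowest. The log2 fold changes of *Saa1* and *Saa2* were 3.16 and 3.75 (adjusted p = 0.132 and 0.133 in edgeR, 0.0390 and 0.0316 in DESeq2), and 1.58 and 1.64 without *Srsf10-kd* 1. In limma-voom they were 2.06 and 2.41 (adjusted p = 0.199 and 0.221). *Apcs* (0.53) and *Lcn2* (1.29) had adjusted p-values of 0.166 and 0.173 in edgeR, and 0.31 and 0.58 as log2 fold changes without *Srsf10-kd* 1. With the length trend removed *Apcs* was 0.26.

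Of 18 immediate early genes, which cells switch on within minutes of a stimulus, 9 had an unadjusted p under 0.05 in edgeR (21.8% of all genes), all higher, DESeq2 called 5, all higher (5.75% of all genes), limma-voom 10, all higher (11.7% of all genes), and the median log2 fold change was 0.41. *Klf4* (0.60), *Ier3* (0.61), *Nr4a1* (0.59) and *Fos* (0.65) had adjusted p-values of 0.115, 0.116, 0.119 and 0.122 in edgeR and 0.00445, 0.0101, 0.0183 and 0.0217 in DESeq2. The growth-regulating factor gene *Klf6* (0.43), the last of the 5 and named after its value was seen, had an adjusted p of 0.129 in edgeR. *Fos*, an AP-1 subunit gene, was at 53.5, 44.4, 50.4 and 54.1 CPM in *Srsf10-kd* and 27.4, 29.8, 45.2 and 26.2 CPM in *Ctrl* livers. *Ctrl* 3 alone reached the *Srsf10-kd* range, as *Ctrl* 3 also came nearest to it for *Dusp1*. Without *Ctrl* 3, edgeR called 6 of the 18 genes at an adjusted p of 0.05, and 3.47% of all genes (544, against 11 with all livers).

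**Figure D5:**
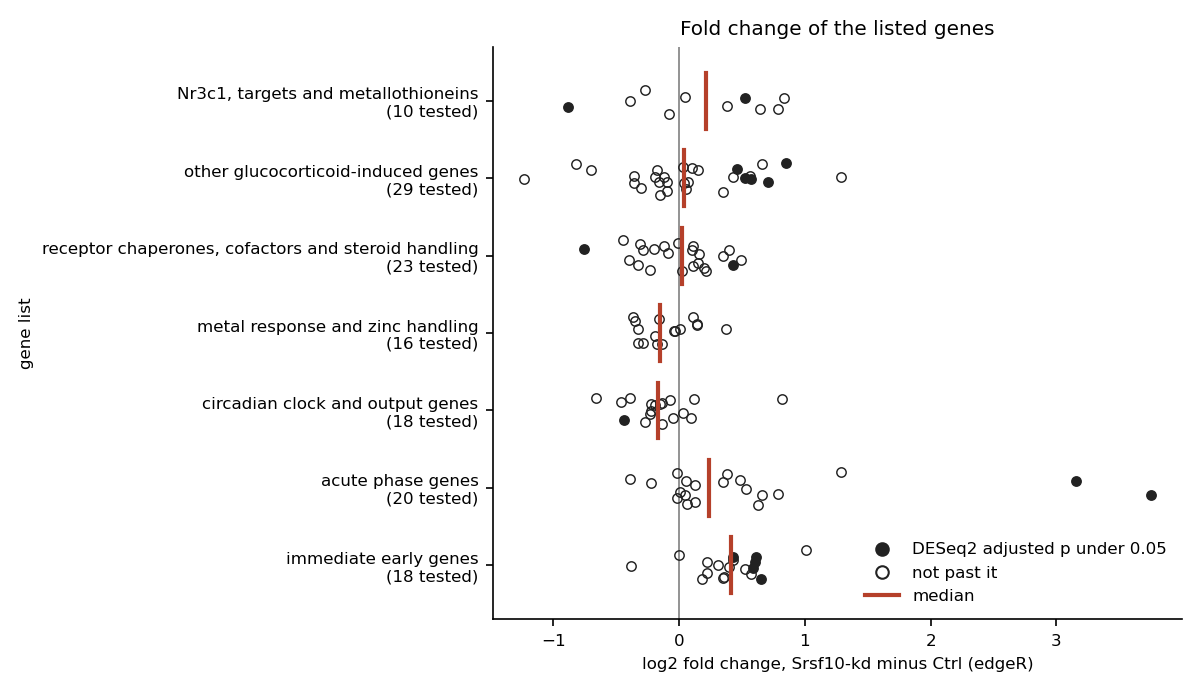
Log2 fold change from edgeR, *Srsf10-kd* minus *Ctrl* (x axis), of every tested gene of each list (y axis), filled where DESeq2 gave an adjusted p under 0.05, with the median of the list as a red bar. The medians run from -0.17 for the clock genes to 0.41 for the immediate early genes, and *Saa1* and *Saa2* lie far right at 3.16 and 3.75.

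Over all 15491 genes tested, edgeR gave 1736 higher and 1646 lower at an unadjusted p under 0.05, and DESeq2 called 386 higher and 504 lower. The labelled tissue was borne out by hepatocyte markers, 6 genes that together took 94620 to 112723 CPM in *Srsf10-kd* and 78666 to 105132 CPM in *Ctrl* livers. Kupffer cell markers (6 genes) took 137 to 241 CPM and 167 to 253 CPM. Endothelial markers (6 genes) took 182 to 214 CPM and 192 to 217 CPM, and stellate cell markers (6 genes) 178 to 313 CPM and 200 to 234 CPM, with *Srsf10-kd* 3 the highest. Red blood cell genes (5) took 333, 294, 800 and 637 CPM in *Srsf10-kd* 1 to 4 and 292 to 380 CPM in *Ctrl* livers. B cell (4 genes) and neutrophil markers (5 genes) stayed within 1.83 to 3.86 CPM and 1.03 to 3.12 CPM over the 8 livers, and adipocyte markers (4 genes) took 26.0 to 66.5 CPM and 48.8 to 142 CPM. Markers of the adrenal cortex, where the hormone is made, took 0.445 to 0.875 CPM in *Srsf10-kd* and 0.164 to 1.13 CPM in *Ctrl* livers over 4 genes, of which *Cyp11b1* and *Mc2r* were at 0 in all livers.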

How the data were processed

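Bulk RNA-seq of 8 livers (4 *Srsf10-kd*, 4 *Ctrl*) was analysed. Per the labels and the paper's methods, the authors selected poly(A) RNA and prepared libraries with a directional NEBNext Ultra II kit. They aligned reads to GRCm38 (mm10) with STAR 2.7.7a and deposited whole-number counts per gene without normalization. The annotation release and the strand column are not given in the sources used here. Totals were 50456404 to 59697241 counts a liver. No pair of the 28 was a duplicate (chi-square over degrees of freedom at least 46.5).

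Counts were fitted in R 4.3.3 with edgeR 4.0.16 (TMM, filterByExpr, quasi-likelihood test on group alone, two-sided, Benjamini-Hochberg over 15491 genes). CPM are TMM-scaled, and log2 CPM use a prior count of 2. DESeq2 1.42.0 (independent filtering off), limma 3.58.1 (voom weighted by sample quality), size factors of DESeq2 in edgeR, library size alone, no filter, a minimum of 10 counts per liver, a block on replicate number, a lowess correction (span 0.5) on transcript length, and leaving out each liver were run as alternatives. Single genes were tested by exact permutation over 70 assignments. Scripts were tested on simulated data. Symbols, positions and lengths come from GENCODE M21 (GRCm38), which names 45143 of the 45706 identifiers, and promoter windows from RefSeq (GRCm38.p6).

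The members and gene lists were chosen with earlier results of these data known. The text names the 10 genes, *Srsf10*, the 4 genes of each list with the smallest unadjusted p where none passed adjusted p 0.05, *Arntl*, *Dbp*, *Nr1d1*, *Hsd11b1*, *Serpina6*, *Mtf1*, *Slc30a1*, the 3 genes most like *Nr3c1*, *Fkbp5* and *Mt1*, and, outside this rule, *Per1* as part of a pair and the genes marked as named after their values were seen. *Per1*, *Zfp36*, *Lcn2* and *Orm1* are each in 2 lists. *Sult1e1*, *Hsd11b2*, *Mt3* and *Mt4* did not pass the filter.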

Additional observations from a re-analysis of the deposited data

Results flagged for a closer look

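A liver was singled out where its gap to the nearest of the other livers of its group, divided by the group's range, exceeded Dixon's critical value for 4 samples. This was checked in 84 groups of 4 livers (42 genes), of which 5 exceeded it, where chance gives 4.2, about 1 in 20. That rate assumes normally distributed and independent values. CPM were used here without a log, and *Saa1* and *Saa2* share their flagged liver, so the rate is only a rough guide. *Zbtb16* was 28.7 CPM in *Ctrl* 3 and 59.5 to 65.8 CPM in the other *Ctrl* livers (0.830). *Arntl* was 3.54 CPM in *Ctrl* 3 and 4.42 to 4.57 CPM in the others (0.853). *Nr4a1* was 13.0 CPM in *Ctrl* 3 and 8.18 to 8.95 CPM in the others (0.840). *Saa1* was 747 CPM in *Srsf10-kd* 1 and 17.6 to 130 CPM in the other *Srsf10-kd* livers (0.846). *Saa2* was 516 CPM in *Srsf10-kd* 1 and 6.82 to 64.0 CPM in the others (0.888). The cause was not tested for any of them.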

How the results depend on the processing

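The 10 genes were refitted under 16 other settings each. Of these 160 values, 149 kept their direction and their side of adjusted p 0.05, 8 came to pass it, 0 lost it and 3 changed sign. None could lose it, as 0 of the 10 passed in the main edgeR fit. A kept direction can hide a change in size, as for *Nr3c1*, at -0.27 in that fit and -0.046 with the length trend removed. The number of the 10 genes past adjusted p 0.05 was 0 in edgeR, 2 in DESeq2, 4 in limma-voom and 0 to 2 with each liver left out (*Dusp1* and *Zbtb16* without *Ctrl* 3). The number whose groups did not overlap was 1, but 0 with library size only, 0 with the length trend removed and 1 to 4 with each liver left out; without *Srsf10-kd* 3 they were *Sgk1* and *Dusp1*, higher, and *Nr3c1* and *Fkbp5*, lower, beside 16.2% of all genes, and fewer livers overlap less readily. Over all genes, 11 were past adjusted p 0.05 in edgeR, 890 in DESeq2, 1814 in limma-voom, 46 with no filter, 59 with the replicate number as a block and 0 to 544 with each liver left out (544 without *Ctrl* 3, 64 without *Srsf10-kd* 3, 4 without *Ctrl* 1, 5 without *Ctrl* 4, and 0 without *Ctrl* 2 or *Srsf10-kd* 1, 2 or 4). Of the other listed genes, 0 passed in edgeR, 15 in DESeq2, 23 in limma-voom and 0 to 11 with each liver left out. Log2 fold changes near 0 changed sign. With limma-voom *Klf9* was -0.073, *Dbp* -0.25 and *Serpina6* -0.14. With the replicate block *Dbp* was -0.0085. With the length trend removed *Dbp* was -0.059 and *Mtf1* 0.25. With each liver left out, *Klf9* ran from -0.091 to 0.13, *Errfi1* from -0.13 to 0.011, *Arntl* from -0.35 to 0.01, *Dbp* from -0.25 to 0.34, *Serpina6* from -0.11 to 0.40 and *Mtf1* from -0.11 to 0.01. With group means removed the correlation of *Dusp1* and *Errfi1* was 0.15 that of *Fkbp5* and *Per1* -0.04 and that of *Fkbp5* and *Mt1* 0.64. The cause of these differences was not tested. Same-numbered livers were not treated as pairs, since the labels tie a number to nothing shared and the deviations from the group means correlated at -0.176, 0.213, 0.265 and 0.217, over 0.1 in 3 of 4 pairs and not in all. Of the 8 livers, 5 correlated best with their own number in the other group, a hint from the data and not from the design. The replicate block brought 0 of the 10 genes past the threshold. Counts of 327 to 2091 reads for *Mt2*, the least counted, leave depth small beside the spread between livers.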
